A study of Mus musculus with 6 samples.

Results

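Toll-like receptors are the pattern-recognition receptors through which macrophages, dendritic cells and other cells of innate immunity sense microbial and some host molecules. The 10 genes Tlr1, Tlr2, Tlr3, Tlr4, Tlr5, Tlr6, Tlr7, Tlr8, Tlr9 and Tlr13 were taken by symbol from a table of 23930 genes, and all 10 were found. The table gives transcript levels of CD31-positive cells that were sorted from tumours that LLC cells, the Lewis lung carcinoma line of the mouse, had formed under the skin of C57/Bl6 mice 2 weeks after injection. In 3 libraries (BMP9 overexpression, replicates 4, 5 and 6) the injected LLC cells overexpressed BMP9, a bone morphogenetic protein that endothelial cells respond to, and in the other 3 libraries (Control, replicates 1, 2 and 3) control LLC cells were injected. The labels give neither the age or sex of the mice nor the construct behind the overexpression, and they do not say whether the controls carried an empty vector or whether each library came from its own animal. The p-values therefore measure the spread between these libraries, which may be technical.

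Each Toll-like receptor has an ectodomain of leucine-rich repeats that binds the ligand and a cytoplasmic TIR domain that recruits adaptor proteins. Tlr1, Tlr2, Tlr4, Tlr5 and Tlr6 act at the cell surface on lipoproteins, lipopolysaccharide and flagellin of bacteria, whereas Tlr3, Tlr7, Tlr8, Tlr9 and Tlr13 act in endosomes on nucleic acids. All of them except Tlr3 signal through the adaptor Myd88, while Tlr3, and Tlr4 after its uptake into endosomes, use the adaptor TRIF (Ticam1). In tumours these genes are known mainly from macrophages, monocytes, dendritic cells and B cells, and Tlr4 also from endothelium.

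The promoters of 3 members are shown because their genes behaved differently: Tlr8 had the largest fitted change of the tested members with all libraries, Tlr9 rose and Tlr2 did not pass the test. RefSeq promoter sequences (build GRCm38.p6, 250 bases before to 50 bases after the annotated start) were found for 8 of the 10 members. Tlr4 and Tlr7 had no entry. The windows are chrX:167264280-167264579 on the minus strand for Tlr8, chr9:106222348-106222647 on the plus strand for Tlr9 and chr3:83841559-83841858 on the minus strand for Tlr2. All are written 5′ to 3′ along the gene, and capitals mark motif matches.
Tlr8: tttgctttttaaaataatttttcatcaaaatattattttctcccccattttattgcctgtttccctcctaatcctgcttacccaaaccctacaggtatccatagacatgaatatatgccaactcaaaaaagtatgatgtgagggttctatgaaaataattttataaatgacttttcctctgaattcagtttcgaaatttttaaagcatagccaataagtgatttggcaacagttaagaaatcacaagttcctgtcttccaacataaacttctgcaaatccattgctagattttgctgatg
Tlr9: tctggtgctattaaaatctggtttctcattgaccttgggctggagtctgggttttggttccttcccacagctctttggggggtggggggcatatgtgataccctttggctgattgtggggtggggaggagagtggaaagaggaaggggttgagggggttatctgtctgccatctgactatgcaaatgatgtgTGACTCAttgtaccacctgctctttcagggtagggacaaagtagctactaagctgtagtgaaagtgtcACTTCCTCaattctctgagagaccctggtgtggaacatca
Tlr2: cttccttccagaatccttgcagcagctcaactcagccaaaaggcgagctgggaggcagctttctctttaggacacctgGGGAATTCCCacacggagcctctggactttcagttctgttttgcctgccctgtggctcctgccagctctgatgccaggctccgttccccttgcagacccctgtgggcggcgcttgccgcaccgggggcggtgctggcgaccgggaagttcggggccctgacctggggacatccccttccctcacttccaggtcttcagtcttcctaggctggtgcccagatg
The motifs searched on both strands were the PU.1 and ETS element GAGGAAGT, the kappaB element GGGNNTTCC, the IRF element GAAANNGAAA and the AP-1 element TGANTCA. The Tlr9 window held an AP-1 match whose first base lies at -58 from the start, and a PU.1 and ETS match on the opposite strand at 11. The Tlr2 window held 1 stretch that matched the kappaB element on both strands, at -172 and -171, so that the matches overlap. The Tlr8 window held none of the 4 motifs, and neither did those of Tlr5 and Tlr13, which also rose, nor that of Tlr3. Tlr1 and Tlr6 have a pair of entries each, of which 1 held a PU.1 and ETS match at -23 (Tlr1) and 1 held IRF matches on the opposite strand at -116 and -110 (Tlr6). Among all 32851 promoter entries of the same length, 3.2% held the PU.1 and ETS element, 5.82% the kappaB element, 3.44% the IRF element and 7.81% the AP-1 element. A match describes letters and does not show a bound site.

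The values are RPM, the reads of a gene scaled to a common library total, from a panel that amplifies 1 short segment of each gene, so gene length does not enter. Yields of amplicons differ, and levels are compared here for the same gene between libraries. Depth was 1974510 to 28380957 reads per BMP9 overexpression library and 1321762 to 4583428 reads per Control library, so that 3 reads correspond to 0.106 to 1.52 RPM in BMP9 overexpression and 0.655 to 2.27 RPM in Control libraries. By the run time stamps in the sample descriptions, BMP9 replicate 4 shares the earlier stamp with all Control libraries, whereas BMP9 replicates 5 and 6 have a later one. The labelled cell type was checked against its markers: Pecam1, the gene of CD31, had 303 ± 53.5 RPM in BMP9 overexpression and 448 ± 84.3 RPM in Control libraries (SD, n = 3 each; log2 fold change -0.56, limma adjusted p = 0.12). Another 14 endothelial markers together summed to 44.9 ± 9.38 RPM in BMP9 overexpression and 54.0 ± 26.5 RPM in Control libraries (SD, n = 3 each), and 7 of the 14 were under 5 RPM in every library. Of the 4 that passed the filter, Flt1 rose (log2 fold change 1.83, limma adjusted p = 0.0058), Kdr fell (-1.32, limma adjusted p = 0.025), and Cdh5 and Plvap did not pass the test. Flt1 passed the filter with the help of BMP9 overexpression and Kdr only through Control, in each case the group where the gene is high. Sox17 had no read in 5 of the libraries and 0.035 RPM in BMP9 replicate 6. Values of leukocyte markers are given beside the receptors below.

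Of the 10 receptor genes 9 passed the filter of at least 5 RPM in at least 3 libraries, and 6 rose in BMP9 overexpression libraries (limma-trend on the log scale, Benjamini-Hochberg adjustment over all 9460 tested genes, threshold 0.05). The 6 were Tlr4, Tlr5, Tlr7, Tlr8, Tlr9 and Tlr13, that is 2 of the 5 surface and 4 of the 5 endosomal receptors. Over all tested genes 12.7% were called higher and 22.5% lower. No member was called lower by limma, none was lower at an unadjusted p under 0.05, and edgeR and DESeq2 on recovered reads called 6 higher and 0 lower. With TMM scaling the whole table held 1629 higher and 1383 lower calls, against 1200 and 2130 with RPM as deposited, and the middle value of the log2 fold changes over all tested genes was 0.004 and -0.24. Both scalings called 6 members, and the fold changes below stand beside that shift of the median. Libraries of the 2 groups did not overlap for 8 of the 10 members, all higher in BMP9 overexpression, of which 7 passed the filter, where 16.8% of all tested genes did not overlap in that direction.

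**Figure D1:**
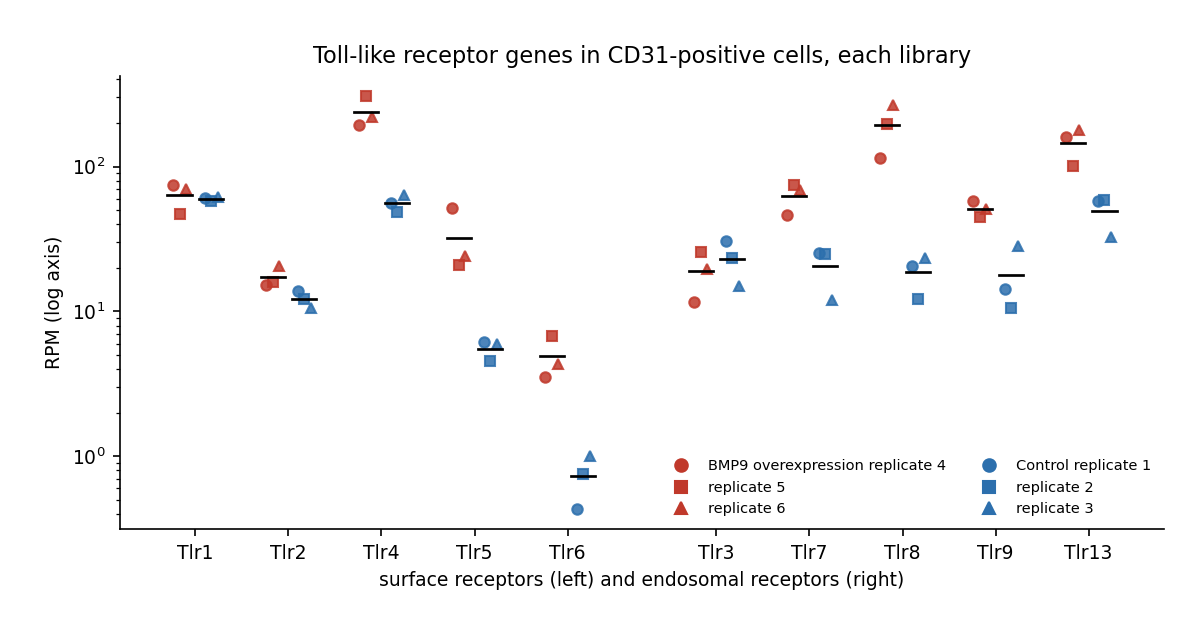
Level of each Toll-like receptor gene in RPM (log axis) in each library of CD31-positive cells. Red symbols are BMP9 overexpression replicates 4, 5 and 6, blue symbols are Control replicates 1, 2 and 3, and black bars are group means. The groups overlap for Tlr1 and Tlr3 and are apart for the other 8 genes, with the widest gap for Tlr8 (114 to 267 RPM in BMP9 overexpression, 12.1 to 23.5 RPM in Control libraries).

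Among the surface receptors the lipopolysaccharide receptor Tlr4 rose. Tlr4 (mm10, chromosome 4, 66827584 to 66930284, plus strand) had 195, 306 and 219 RPM in BMP9 overexpression replicates 4, 5 and 6, against 56.1, 48.4 and 63.5 RPM in Control replicates 1, 2 and 3. Each BMP9 overexpression library was above every Control library, and replicate 5 was the highest. The means were 240.1 ± 58.5 RPM in BMP9 overexpression and 56.0 ± 7.54 RPM in Control (SD, n = 3 each), and the log2 fold change was 2.06 (SE 0.27, 95% interval 1.48 to 2.64, limma adjusted p = 5.4e-05). Tlr5, the flagellin receptor (chromosome 1, 182954788 to 182976044, plus strand), had 51.7, 21.1 and 24.0 RPM in BMP9 overexpression replicates 4, 5 and 6, against 6.11, 4.54 and 6.0 RPM in Control libraries. The groups were apart, and replicate 4 stood above the other BMP9 overexpression libraries, with 102 reads behind its value. Only 2 Control libraries reached 5 RPM, so the gene passed the filter with the help of the group where it was high. The log2 fold change was 2.24 (SE 0.38, limma adjusted p = 0.00042), and it was 1.85 without BMP9 replicate 4. With a pseudocount of 5 in place of 1 it was 1.73, since the Control level is low.

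Tlr1, Tlr2 and Tlr6 act as partners, Tlr2 pairing with either of the others to bind lipoproteins, and they did not move alike. Tlr2 (chromosome 3, 83836272 to 83841767, minus strand) had 15.2, 16.1 and 20.6 RPM in BMP9 overexpression libraries and 13.7, 12.1 and 10.5 RPM in Control libraries. The groups were narrowly apart, with BMP9 replicate 4 just above Control replicate 1. The log2 fold change of 0.48 (SE 0.33, 95% interval -0.22 to 1.17) missed the threshold (adjusted p = 0.27 from limma), and it passed with array weights (0.64, adjusted p = 0.035). Tlr1 (chromosome 5, 64924679 to 64933563, minus strand) had 75.0, 47.2 and 69.9 RPM in BMP9 overexpression libraries and 60.4, 57.5 and 61.5 RPM in Control libraries. BMP9 replicate 5 was below all Control libraries and the other BMP9 libraries were above them. The log2 fold change was 0.07 (SE 0.28, 95% interval -0.53 to 0.67, limma adjusted p = 0.87).

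Tlr6 (chromosome 5, 64952031 to 64960097, minus strand) was the only member under the filter and was not tested with the others. It had 3.54, 6.80 and 4.33 RPM in BMP9 overexpression libraries, from 7, 30 and 123 reads, and 0.436, 0.757 and 1.0 RPM in Control libraries, from 2, 1 and 2 reads. Every BMP9 overexpression value was above every Control value, and the Control values were under the level of 3 reads in each library. Pooled over libraries, 160 of 34765122 reads in BMP9 overexpression and 5 of 7904976 reads in Control libraries give a ratio of 7.28 (exact 95% interval 3.05 to 22.7, counting error only). The exact two-sided permutation p over libraries was 0.1, the smallest that 3 against 3 allow, and in the fit without a filter the log2 fold change was 1.74 (SE 0.34, limma adjusted p = 0.022). Tlr1 and Tlr6 are neighbours, 18467 bases apart, and near-identical in part: 616 of the 30-base words of their transcripts (GENCODE M21) occur in both genes. Where the amplicons lie was not used here, so how far their reads could be exchanged was not tested. The Tlr6 to Tlr1 ratio within a library was 0.0473, 0.144 and 0.062 in BMP9 overexpression and 0.0072, 0.0132 and 0.0163 in Control libraries, which were apart (exact two-sided permutation p = 0.1, the smallest possible).

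Among the endosomal receptors Tlr8 had the largest fitted change, and with all libraries it was also the largest of the 9 tested members, whereas within the earlier stamp that of Tlr5 was larger (3.02 for Tlr5 and 2.60 for Tlr8). Tlr8 (chromosome X, 167242696 to 167264329, minus strand), which in humans recognises products of single-stranded RNA, had 114, 197 and 267 RPM in BMP9 overexpression replicates 4, 5 and 6. Control replicates 1, 2 and 3 had 20.7, 12.1 and 23.5 RPM. The lowest BMP9 overexpression library, replicate 4, was still far above the highest Control library. The means of 193 ± 76.2 RPM in BMP9 overexpression and 18.8 ± 5.94 RPM in Control (SD, n = 3 each) gave a log2 fold change of 3.26 (SE 0.35, 95% interval 2.51 to 4.0, limma adjusted p = 1.2e-05). Tlr7 (chromosome X, 167304929 to 167330558, minus strand), the single-stranded RNA receptor that lies 40599 bases from Tlr8, had 46.1, 74.2 and 68.4 RPM in BMP9 overexpression libraries and 25.3, 25.0 and 12.0 RPM in Control libraries. The groups were apart, and Control replicate 3 was lower than the other Control libraries. The log2 fold change was 1.60 (SE 0.34, limma adjusted p = 0.0024). It was 1.19 among the libraries of the earlier run time stamp alone, where the call was lost (limma adjusted p = 0.089), and with the stamp as a covariate the fold was the same and the call was kept (limma adjusted p = 0.049). In both fits BMP9 replicate 4 is the only BMP9 overexpression library set against Control libraries of its stamp, and within the earlier stamp alone the spread comes from the Control libraries, with the lone library assumed to vary like them. Within a library the Tlr8 to Tlr7 ratio was 2.48, 2.66 and 3.90 in BMP9 overexpression and 0.819, 0.485 and 1.96 in Control libraries, again apart (exact two-sided permutation p = 0.1, the smallest possible).

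Tlr13 and Tlr9 changed by similar amounts. Tlr13 (chromosome X, 106143204 to 106160493, plus strand), a receptor of rodents for bacterial ribosomal RNA that humans lack, had 159, 101.1 and 179 RPM in BMP9 overexpression libraries and 57.6, 59.0 and 32.5 RPM in Control libraries. All BMP9 overexpression libraries were higher, with replicate 5 the lowest of them. The log2 fold change was 1.55 (SE 0.32, limma adjusted p = 0.0017). Tlr9 (chromosome 9, 106222598 to 106226883, plus strand), the receptor for unmethylated CpG DNA, had 57.7, 44.9 and 50.9 RPM in BMP9 overexpression libraries and 14.4, 10.6 and 28.5 RPM in Control libraries. The groups were apart, and Control replicate 3 was the highest of its group for Tlr9, whereas it was the lowest for Tlr7 and Tlr13. The log2 fold change was 1.58 (SE 0.36, limma adjusted p = 0.0032). Tlr3 (chromosome 8, 45395665 to 45411080, minus strand), the double-stranded RNA receptor, had 11.6, 25.9 and 19.6 RPM in BMP9 overexpression libraries and 30.8, 23.5 and 15 RPM in Control libraries. The groups overlapped, with a log2 fold change of -0.28 (SE 0.37, 95% interval -1.07 to 0.52, limma adjusted p = 0.59). Gm45542, an antisense gene, shares exon positions with Tlr3 in GENCODE M21, and 328 of the 5336 30-base words of Tlr3 transcripts occur in it, so reads could be shared only from that part of Tlr3. Strand handling of the panel is not given in the sources used here.

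Within the earlier run time stamp, where BMP9 replicate 4 alone stands against the 3 Control libraries, the log2 fold changes were 2.60 for Tlr8, 3.02 for Tlr5, 1.79 for Tlr4, 1.75 for Tlr9, 1.71 for Tlr13, 0.32 for Tlr1, 0.31 for Tlr2 and -0.87 for Tlr3. The direction of all 9 tested members was the one seen with all libraries. BMP9 replicate 4 had the lowest Tlr8, Tlr7, Tlr4, Tlr6, Tlr2 and Tlr3 and the highest Tlr5, Tlr9 and Tlr1 of the BMP9 overexpression libraries. Replicates 5 and 6 come from the later stamp, so run and replicate cannot be told apart within the group.

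**Figure D2:**
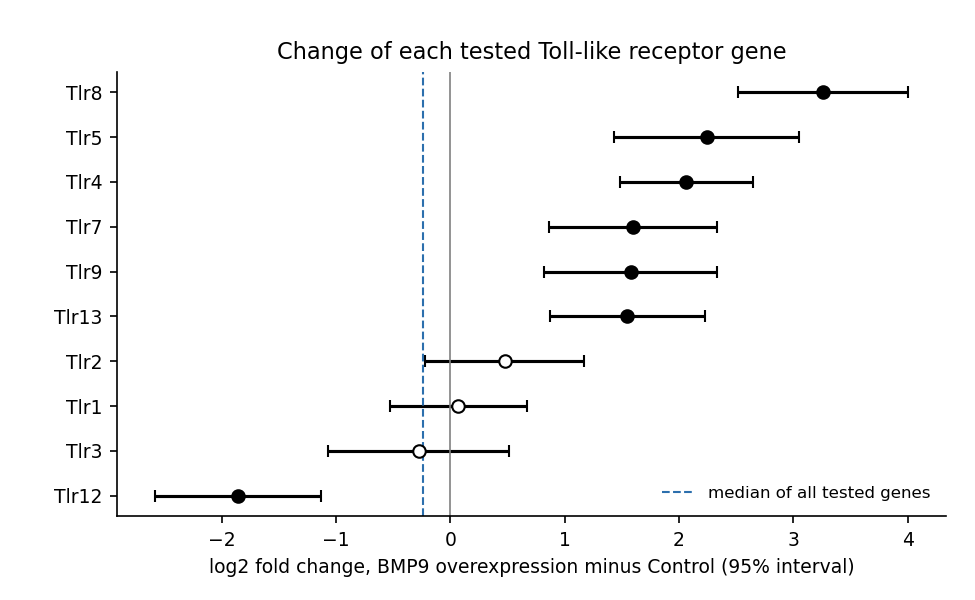
Log2 fold change (BMP9 overexpression minus Control, on the log2(RPM + 1) scale) of the 9 tested members and of Tlr12, with 95% intervals from the limma fit. Filled points passed an adjusted p of 0.05 and open points did not, and the dashed line is the median of all tested genes at -0.24. Tlr8 lies farthest to the right at 3.26, and Tlr1, Tlr2 and Tlr3 have intervals that include 0.

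The other mouse receptors of the family, Tlr11 and Tlr12, which recognise profilin of Toxoplasma, did not follow this pattern. Tlr12 (chromosome 4, 128615443 to 128618619, minus strand) fell, with 4.05, 5.22 and 3.81 RPM in BMP9 overexpression libraries and 17.2, 20.4 and 17.5 RPM in Control libraries. The groups were far apart, with a log2 fold change of -1.86 (SE 0.34, limma adjusted p = 0.00075). Among BMP9 overexpression libraries only replicate 5 reached 5 RPM, so Tlr12 passed the filter with the help of Control, where it was high. With a pseudocount of 5 in place of 1 its log2 fold change was -1.32. Tlr11 was under the filter, with 2.38 ± 1.57 RPM in BMP9 overexpression and 3.40 ± 0.98 RPM in Control libraries (SD, n = 3 each), which overlapped. Markers of plasmacytoid dendritic cells summed to 297 ± 45.1 RPM in BMP9 overexpression and 358 ± 27.5 RPM in Control libraries (SD, n = 3 each). Of 6 tested, 3 fell (Siglech, Klk1 and Spib) and 1 rose (Tcf4), where 22.5% of all tested genes fell and 12.7% rose. Siglech had means of 19.3 RPM in BMP9 overexpression and 44.7 RPM in Control libraries. Tcf4 had means of 115 RPM in BMP9 overexpression and 58.5 RPM in Control libraries (log2 fold change 1.0, limma adjusted p = 0.015). Klk1 was under 5 RPM in BMP9 replicate 4 and passed the filter with the help of Control libraries. None of the 8 measured was at 0 in every library. Their part in the Tlr12 result was not tested.

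Summed over their amplicons, the 10 members had 729, 840.4 and 923 RPM in BMP9 overexpression libraries and 286, 253 and 254 RPM in Control libraries. The make-up of that sum differed between the groups. Tlr8 gave 22.7 ± 6.63% of it in BMP9 overexpression and 7.10 ± 2.24% in Control libraries, while Tlr1 gave 7.82 ± 2.34% in BMP9 overexpression and 22.7 ± 1.53% in Control libraries (SD, n = 3 each). The share of Tlr7, 7.52 ± 1.26% in BMP9 overexpression and 7.81 ± 2.72% in Control libraries, and that of Tlr13, 17.8 ± 5.10% in BMP9 overexpression and 18.8 ± 5.39% in Control libraries, differed by less than their spread.

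Transcripts of macrophages and monocytes moved in the same direction as the 6 receptor genes that rose. The 14 measured markers of these cells summed to 19614, 18524 and 24571 RPM in BMP9 overexpression libraries and 6724, 4687 and 7266 RPM in Control libraries, and all 12 tested were called higher, of which Cd163 passed the filter only through BMP9 overexpression. Csf1r, the receptor of their growth factor, had 591, 263 and 238 RPM in BMP9 overexpression libraries and 97.3, 86.2 and 126 RPM in Control libraries. C1qa, another of these markers, had at most 0.68 RPM in any library. Neutrophil markers summed to 284 ± 60.1 RPM in BMP9 overexpression and 35.5 ± 9.87 RPM in Control libraries (SD, n = 3 each), with 5 of 5 tested higher, of which S100a8 passed the filter only through BMP9 overexpression and S100a9, Retnlg and Mmp8 with its help. Ly6g, which defines these cells, had 0.506, 0.227 and 0.352 RPM in BMP9 overexpression libraries, from 1, 1 and 10 reads, and no read in Control libraries. Ngp had 22.2 RPM in BMP9 replicate 5 but 0.506 and 0.106 RPM in replicates 4 and 6, and no read in Control libraries, and Camp and Ltf overlapped between the groups. Platelet and megakaryocyte markers summed to 686 ± 113 RPM in BMP9 overexpression and 57.5 ± 18.3 RPM in Control libraries (SD, n = 3 each), with 3 of 3 tested higher. Most of the sum was Pf4, which macrophages also express. Ppbp had means of 38.5 RPM in BMP9 overexpression and 1.71 RPM in Control libraries, and Itga2b had 27.35 and 6.08 RPM. Ppbp passed the filter only through BMP9 overexpression and Itga2b with its help. Of the 7 measured, 4 were under 5 RPM in every library, and of these Gp6 was at 0 throughout. T and NK cell markers summed to 1058 ± 312 RPM in BMP9 overexpression and 5609 ± 197 RPM in Control libraries (SD, n = 3 each), with 14 of 14 lower. Beside these counts, 12.7% of all tested genes were called higher and 22.5% lower. B and plasma cell markers, at 79.9 ± 22.4 RPM in BMP9 overexpression and 107 ± 20.6 RPM in Control libraries, and conventional dendritic cell markers, at 288 ± 61.5 RPM in BMP9 overexpression and 225 ± 9.17 RPM in Control libraries (SD, n = 3 each), differed less. The part of these cell types in the receptor results was not tested. In bulk samples a larger number of cells of a type and more RNA per cell cannot be told apart. Genes that respond to tissue dissociation summed to 2694 ± 653 RPM in BMP9 overexpression and 1282 ± 28.6 RPM in Control libraries (SD, n = 3 each).

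Set against the summed macrophage and monocyte markers of the same library, the members fell into 3 kinds, which depend on the denominator. Tlr5, Tlr6 and Tlr8 were still higher in every BMP9 overexpression library, though Tlr5 and Tlr6 only narrowly. Tlr1, Tlr2 and Tlr3 were lower in every such library, and Tlr4, Tlr7, Tlr9 and Tlr13 overlapped between the groups. For Tlr5 BMP9 replicate 6 had 0.978 RPM per 1000 RPM of markers and Control replicate 2 had 0.968. For Tlr6 these libraries had 0.1764 and 0.1615, and its Control values rest on 2, 1 and 2 reads. Tlr8 had 5.84, 10.6 and 10.9 RPM per 1000 RPM of markers in BMP9 overexpression libraries and 3.08, 2.58 and 3.23 in Control libraries. Tlr1 had 3.82, 2.55 and 2.85 RPM per 1000 RPM of markers in BMP9 overexpression libraries and 8.99, 12.3 and 8.46 in Control libraries. Tlr4 had 9.94, 16.5 and 8.92 in BMP9 overexpression libraries and 8.34, 10.3 and 8.74 in Control libraries, a log2 difference of 0.32 (exact two-sided permutation p = 0.4). The exact p of each ratio that was apart was 0.1, the smallest possible, and 10 members were compared, so none would pass an adjustment. With Csf1r alone as the denominator Tlr8, Tlr6 and Tlr2 overlapped between the groups and Tlr5, Tlr1 and Tlr3 stayed apart in the same directions. Lyz2 was the largest part of the marker sum, with means of 10540 RPM in BMP9 overexpression and 4528 RPM in Control libraries. Its log2 fold change of 1.21 was below the median of 2.11 of the tested markers. The ratios to the sum therefore rest largely on this marker, and a sum without it was not tested.

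**Figure D3:**
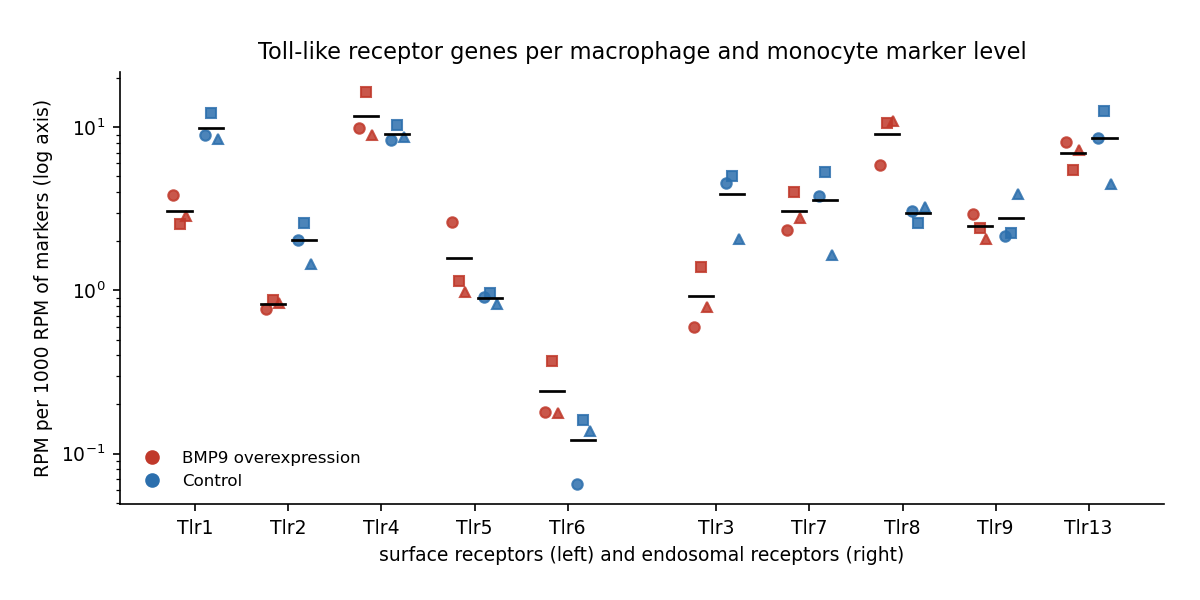
RPM of each Toll-like receptor gene per 1000 RPM of summed macrophage and monocyte markers (14 genes) in the same library, on a log axis. Lyz2 is the largest part of that sum. Red symbols are BMP9 overexpression replicates 4 (circle), 5 (square) and 6 (triangle), blue symbols are Control replicates 1, 2 and 3 in the same order, and bars are means. Tlr1, Tlr2 and Tlr3 are lower, Tlr5, Tlr6 and Tlr8 higher (Tlr5 and Tlr6 narrowly) and the other 4 genes overlapping.

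Genes that deliver ligands to the receptors or sit beside them at the surface rose with Tlr4. Of 5 tested accessory receptors 4 rose (list median 1.61), where 12.7% of all tested genes rose. Cd36 passed the filter only through BMP9 overexpression, where it is high, and Ly96 reached 5 RPM in only 2 Control libraries, so the count and the median are descriptions that include genes admitted in this way. Cd14, which hands lipopolysaccharide to Tlr4, had 1190.2, 491 and 573 RPM in BMP9 overexpression libraries and 77.2, 99.9 and 96.5 RPM in Control libraries (log2 fold change 2.92, SE 0.32, limma adjusted p = 1.4e-05). Ly96, the MD-2 subunit of the Tlr4 complex, had means of 18.1 RPM in BMP9 overexpression and 5.02 RPM in Control libraries (1.61, limma adjusted p = 0.0034), and its call was lost within the earlier run time stamp (1.07, adjusted p = 0.11). Cd36, a scavenger receptor that assists Tlr2, rose by 3.71, and Cd180, a Toll-like receptor homologue, by 1.60. Ly86, the MD-1 partner of Cd180, had means of 50.8 RPM in BMP9 overexpression and 35.6 RPM in Control libraries and overlapped (limma adjusted p = 0.2). Lbp, the serum protein that binds lipopolysaccharide, was under the filter at means of 1.44 RPM in BMP9 overexpression and 0.239 RPM in Control libraries.

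The machinery of the endosomal receptors moved in part. Of 14 tested genes of delivery and processing 6 rose (list median 0.92), where 12.7% of all tested genes rose. The 6 were the proteases Ctsl, Lgmn, Ctsb and Ctss that can cleave receptor ectodomains, the transporter Slc15a3 and the nuclease Dnase2a. Ctsl, a lysosomal cathepsin, had 2595, 1680.2 and 1137 RPM in BMP9 overexpression libraries and 145, 163 and 145 RPM in Control libraries (log2 fold change 3.49, SE 0.30, limma adjusted p = 3.4e-06). These proteases are also abundant lysosomal enzymes of macrophages. Unc93b1, the chaperone that carries the nucleic acid receptors to endosomes, had 665, 1079 and 1105 RPM in BMP9 overexpression libraries and 588, 524 and 659 RPM in Control libraries. The groups were apart by a few RPM at their nearest, and the log2 fold change of 0.65 did not pass (limma adjusted p = 0.084). It passed in 5 alternative settings, TMM scaling among them (0.91, limma adjusted p = 0.024). It did not pass after quantile normalization (0.60, limma adjusted p = 0.1), and within the earlier run time stamp it was 0.18. Hsp90b1, the folding chaperone gp96 of most Toll-like receptors, had a log2 fold change of 0.006 (SE 0.29, limma adjusted p = 0.99).

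Transcripts of most signalling proteins inside the cell did not pass the test. Most of all tested genes did not either, with 12.7% called higher and 22.5% lower. Of 5 tested TIR adaptors only Ticam2 rose, the bridging adaptor of Tlr4 to TRIF, with 45.1, 59.6 and 78.0 RPM in BMP9 overexpression libraries and 23.3, 20.4 and 35 RPM in Control libraries (log2 fold change 1.19, limma adjusted p = 0.01). Its call was lost without BMP9 replicate 6 (0.99, adjusted p = 0.066) and within the earlier run time stamp (0.79, adjusted p = 0.19). Myd88, the shared adaptor, had 131 ± 13 RPM in BMP9 overexpression and 123 ± 7.45 RPM in Control libraries (SD, n = 3 each), and its log2 fold change was 0.09 (SE 0.25, 95% interval -0.44 to 0.63, limma adjusted p = 0.8). Tirap, the sorting adaptor of Tlr2 and Tlr4, Ticam1 (TRIF) and Pik3ap1, an adaptor towards PI3 kinase, had log2 fold changes of 0.51, 0.21 and -0.04, and Sarm1 was under the filter.

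Of 20 tested kinases and ubiquitin ligases 2 rose and 1 fell, with a list median of -0.03. The share that rose lies near the 12.7% of all tested genes, and the share that fell lies below their 22.5%. Peli1, a ubiquitin ligase of the IRAK complex, fell to 136 RPM in BMP9 overexpression libraries, against 280.2 RPM in Control libraries, on average (log2 fold change -1.04, SE 0.25, limma adjusted p = 0.0049). Tbk1 and Ikbke, kinases that activate interferon regulatory factors, rose by 0.86 and 0.96. Ikbke lost its call with array weights (0.48), with no filter, and when Control replicate 2 (0.77), Control replicate 3 (0.96) or BMP9 replicate 5 (0.87) was left out. Tbk1 lost it when Control replicate 3 (0.80) or BMP9 replicate 5 (0.74) was left out and within the earlier stamp (0.72). Irak2, a kinase of the Myd88 complex, had means of 131 RPM in BMP9 overexpression and 71.9 RPM in Control libraries and did not pass (limma adjusted p = 0.062), but passed with TMM scaling (1.04, adjusted p = 0.017).

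Of 13 tested transcription factors of the response 5 rose and 1 fell, with a list median of 0.12, where 12.7% of all tested genes rose and 22.5% fell. Cebpb, a regulator of inflammatory and myeloid genes, had 1289, 819 and 963 RPM in BMP9 overexpression libraries and 131, 182 and 196 RPM in Control libraries (log2 fold change 2.58, limma adjusted p = 1.2e-05). Atf3 and Fos, early response factors, rose by 2.43 and 1.42. The part of tissue dissociation, whose genes are given above, in the levels of Atf3 and Fos was not tested. Irf5, a factor that Myd88 activates, rose by 0.98 and Rel, an NF-kappaB subunit, by 0.81. The call of Rel was lost within the earlier stamp (0.47, adjusted p = 0.29) and when Control replicate 1 (0.79), Control replicate 3 (0.77), BMP9 replicate 5 (0.77) or BMP9 replicate 6 (0.68) was left out. Irf8, a factor of dendritic cell and monocyte development, fell to 440, 606 and 480 RPM in BMP9 overexpression libraries, against 1734, 1369 and 1039 RPM in Control libraries (log2 fold change -1.42, limma adjusted p = 0.0013).

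Of 15 tested inhibitors of the response 3 rose and 3 fell (list median 0.25), where 12.7% of all tested genes rose and 22.5% fell, so the counts lie near the background. Irak3, a kinase-inactive brake on the IRAK complex, had 75.5, 115 and 81.3 RPM in BMP9 overexpression libraries and 20.7, 21.9 and 31.0 RPM in Control libraries (log2 fold change 1.84, SE 0.30, limma adjusted p = 0.0003). Zc3h12a, a ribonuclease that degrades cytokine transcripts, rose by 1.12 and Tnip3, a binding partner of the ubiquitin-editing enzyme A20, by 0.86. Zc3h12a lost its call without Control replicate 1 (1.01), and Tnip3 without Control replicate 1 (0.57) or BMP9 replicate 6 (0.70), without the filter or the trend (0.86 each), and within the earlier stamp (0.68). Sigirr, a TIR-domain receptor that dampens signalling, fell to 24.3, 8.84 and 8.46 RPM in BMP9 overexpression libraries, against 43.2, 59.8 and 50.005 RPM in Control libraries (log2 fold change -1.95, limma adjusted p = 0.0012), and its call was lost within the earlier stamp (-1.03, adjusted p = 0.063). Otulin and Cyld, deubiquitinases, fell by 0.91 and 1.10 on the log2 scale. Both calls were lost with TMM scaling (-0.66 and -0.85), with edgeR (-0.65 and -0.75), with DESeq2 (-0.66 and -0.76), and when Control replicate 1 (-0.84 and -0.93) or Control replicate 3 (-0.94 and -0.96) was left out. That of Otulin was also lost when BMP9 replicate 6 was left out (-0.82), and that of Cyld when BMP9 replicate 4 was left out (-0.64). Sigirr, Otulin and Cyld are also expressed by lymphocytes, whose T and NK cell markers were lower in the same libraries, as given above, and their part in these changes was not tested.

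Of 14 tested inducible products of these pathways 10 rose (list median 2.87), where 12.7% of all tested genes rose. Il1a, Il6, Cxcl1 and Nos2 reached 5 RPM in no Control library and so passed the filter only through BMP9 overexpression, where they are high, and the count and the median are descriptions that include them. Ccl2, a chemokine that attracts monocytes, rose by 3.01, Ptgs2, the inducible cyclooxygenase, by 3.20, Ccl3, another chemokine, by 2.73 and Il6, the cytokine, by 3.04 on the log2 scale, with limma adjusted p-values of 3.5e-06, 3.6e-06, 5.6e-06 and 3.1e-05. Ptgs2 had 317, 185 and 252 RPM in BMP9 overexpression libraries and 28.1, 28.0 and 21.5 RPM in Control libraries, with no overlap. Tnf, the cytokine, had means of 0.98 RPM in BMP9 overexpression and 0.252 RPM in Control libraries and was not tested. Ifnb1, Il23a and Saa3 were listed at 0 in all Control libraries, where 0 of 7904976 reads allow a level of up to 0.38 RPM. In BMP9 overexpression libraries Ifnb1 had 0.506, 0.907 and 0.74 RPM, from 1, 4 and 21 reads. Il23a had 3.04, 0.454 and 0.705 RPM, from 6, 2 and 20 reads. Saa3 had 9.12, 2.04 and 0.423 RPM, from 18, 9 and 12 reads. Ifnb1 in replicate 4 and Il23a in replicate 5 were under the level of 3 reads. Of 8 tested genes that respond to dissociation 5 rose, while Fosb, Ier2 and Dnajb1 had log2 fold changes of 0.14, 0.54 and -0.33 and did not pass, and the part of dissociation in the levels of the inducible products was not tested.

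**Figure D4:**
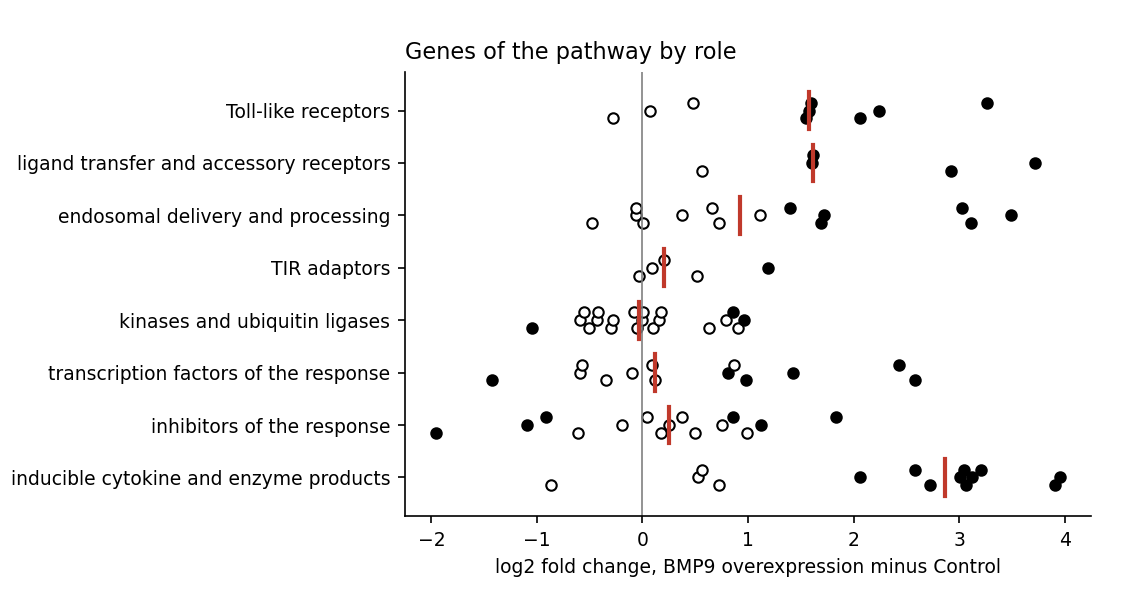
Log2 fold change (BMP9 overexpression minus Control) of each tested gene of the pathway, by role. Filled points passed an adjusted p of 0.05, open points did not, and red bars are list medians. The 9 tested receptors (median 1.58), accessory receptors (1.61) and inducible products (2.87) lie to the right of the adaptors (0.21) and kinases (-0.03), and 1 accessory receptor and 4 inducible products passed the filter only through BMP9 overexpression.

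The genes whose libraries followed Tlr4 and Tlr8 most closely were found by the Euclidean distance between centred log2(RPM + 1) profiles over the 6 libraries, a description of likeness and no test. Among those nearest to Tlr4 were Cdk20 (0.289), Irak3 (0.396), Tgfbi (0.409) and Plaur (0.468). Irak3 is the inhibitor described above, and Plaur is the urokinase receptor. Nearest to Tlr8 were Plcb1 (0.778), Hyal1 (0.812), Itgam (0.832), Ccl9 (0.851) and Clec4a1 (0.894), at larger distances. Plcb1 and Hyal1 reached 5 RPM in no Control library and passed the filter only through BMP9 overexpression. Clec4a1 had 1.51 RPM in Control replicate 2 and passed with the help of BMP9 overexpression. Itgam, the CD11b integrin of myeloid cells, had 3709, 4301 and 4021 RPM in BMP9 overexpression libraries and 420.2, 299 and 634 RPM in Control libraries.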

How the data were processed

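RNA of the sorted CD31-positive cells was amplified with the Ion AmpliSeq mouse transcriptome panel, as the labels' protocols state, and the submitters' processing notes name mm10. For aligner, counting tool and filters the sources used here give nothing. The values deposited by the authors are RPM, since each column is scaled to its own library total. Whole reads came back from 100% of nonzero values (tolerance 0.05 reads), and intervals from reads cover counting error only, since PCR copies are not independent molecules.

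Titles gave the groups and replicate numbers. The test was limma-trend (version 3.58.1 under R 4.3.3) on RPM plus a pseudocount of 1, log2 transformed, for genes reaching 5 RPM in 3 or more libraries, and p-values were adjusted by Benjamini-Hochberg over all of them. Fold changes on this scale understate changes of low genes. Adjusted p-values come from limma unless edgeR (4.0.16) or DESeq2 (1.42.0), run on recovered reads as alternatives, is named. The code was tested on simulated data. The members and lists were chosen with earlier results of these data known.

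The text names all members, Tlr11 and Tlr12, up to 4 tested genes of smallest p in each pathway list, every adaptor and accessory receptor, list genes at 0 in a group, Csf1r, Pecam1, and the 5 genes nearest to each of the 2 members of highest mean, of which 1 is not reported here. Unc93b1, Hsp90b1, Ctss, Dnase2a, Irf5, Rel, Tnip3, Cyld, Tnf, Il1a, Cxcl1, Nos2 and the marker genes other than Csf1r and Pecam1 were chosen after their values were seen. Of the pathway and marker symbols, those without a match in the table were not used here. Gene positions are those of GENCODE M21 on mm10 and give the whole gene, and promoters are those of RefSeq on GRCm38.p6.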

Additional observations from a re-analysis of the deposited data

How the results depend on the processing

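Pseudocounts, filters, scalings, array weights, a fit without a trend, the run time stamp, edgeR, DESeq2 and leaving out each library gave 160 values for the 9 tested members, and 158 kept their call. Of the uncalled members, Tlr1 was below 0 when BMP9 replicate 4 (-0.06) or 6 (-0.007) was left out, and Tlr3 was above 0 after quantile normalization and when BMP9 replicate 4 was left out (0.02 each). The exceptions were Tlr2, called with array weights (0.64), and Tlr7, not called within the earlier run time stamp (1.19). The number of members called higher was between 5 and 7, and no setting called one lower. It was 5 under a filter on the mean at 20 RPM, where Tlr5 is not tested, and within the earlier stamp, and 7 with array weights and without a filter, which adds Tlr6. Of all genes, 2130 were lower as deposited, 1383 with TMM factors, 3351 with array weights and 1093 to 2308 when 1 library was left out, with 1093 without Control replicate 1 and 1394 without Control replicate 3. The higher and lower calls numbered 1530 and 1532 after quantile normalization, 1693 and 1421 with edgeR and 1771 and 1546 with DESeq2. Pathway genes called lower numbered 5, against 3 with TMM, quantile normalization, edgeR or DESeq2, 16 with array weights and 3 to 7 when 1 library was left out (3 without Control replicate 3). Of 1512 values of single pathway genes 1387 kept their call, 45 lost it and 80 gained it, and no called value changed sign. The causes were not tested. No paired analysis was possible because the groups share no replicate number. Depth limits Tlr6, whose Control values rest on 5 reads.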
